A study of Mus musculus with 8 samples.

Results

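Mitochondrial fatty acid oxidation and the use and formation of ketone bodies were followed through 32 named genes in kidneys of aged and adult mice. The genes were taken by symbol, as the enzymes, transporters and regulators of this pathway, and not by their levels. All 32 had a row among 30153 gene identifiers, and 31 of them were among the 11796 genes that could be tested. The exception was Eci1, an isomerase of unsaturated chains, which had at most 0.00361 TPM in any library. A value near 0 in a TPM table can be a failed estimate, so that of Eci1 is not read as absence of its transcript.

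Kidney RNA was sequenced from 8 C57/BL6 mice of a hypertensive line that overexpressed the human angiotensin receptor type 1 from its haplotype II (Hap-II). The groups were 4 Hap-II aged mice on a western diet and 4 Hap-II adult mice on a western diet. The transgene and the diet were therefore common to both groups, and neither mice without the transgene nor mice on another diet entered the comparison. The labels name neither the promoter that drives the transgene nor an age in weeks or months nor the sex of the mice. Each animal gave 1 library. Values are TPM, an abundance per transcript length relative to the whole library, so that a gene's value also moves with what the rest of the library holds and the read depth is unknown.

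Fatty acids reach the kidney bound to albumin and are held in the cell by fatty acid binding proteins, activated to acyl-CoA by synthetases, and carried into the mitochondrion by the carnitine shuttle. There each round of beta oxidation runs through an acyl-CoA dehydrogenase, a hydratase, a hydroxyacyl-CoA dehydrogenase and a thiolase, and the electrons of the first step pass to the respiratory chain through electron transfer flavoprotein. The acetyl-CoA is burnt or, mainly in liver, made into ketone bodies, which the kidney also takes up and oxidises. Proximal tubule cells rely heavily on this route for energy, and the nuclear receptor PPARA, which fatty acids activate, drives the transcription of many of its genes.

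Promoter sequence is shown for 3 members that the results below turn on: Fabp1 and Acsm2, which differed between libraries in opposite directions, and Hadhb, which starts close to its partner Hadha. The bases are RefSeq sequence of build GRCm38.p6, 5′ to 3′ on the plus strand of the genome, which is the strand of all 3 genes, and end just before the annotated start of transcription. The Fabp1 stretch is chr6:71199629-71199878, Hadhb at chr5:30155003-30155252 and Acsm2, by the first of its listed starts, at chr7:119554090-119554339. Capitals mark the nuclear receptor half-site AGGTCA, which is printed as its reverse complement where it lies on the other strand.
Fabp1: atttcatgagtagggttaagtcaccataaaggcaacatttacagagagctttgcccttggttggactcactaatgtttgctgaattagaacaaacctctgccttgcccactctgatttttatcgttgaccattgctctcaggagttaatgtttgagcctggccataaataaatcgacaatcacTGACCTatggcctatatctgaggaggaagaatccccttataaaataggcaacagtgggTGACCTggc
Hadhb: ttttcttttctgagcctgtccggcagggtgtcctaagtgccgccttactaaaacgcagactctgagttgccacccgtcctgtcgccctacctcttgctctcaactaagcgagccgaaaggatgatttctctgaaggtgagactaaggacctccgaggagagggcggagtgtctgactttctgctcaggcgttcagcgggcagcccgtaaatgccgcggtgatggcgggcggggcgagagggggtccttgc
Acsm2: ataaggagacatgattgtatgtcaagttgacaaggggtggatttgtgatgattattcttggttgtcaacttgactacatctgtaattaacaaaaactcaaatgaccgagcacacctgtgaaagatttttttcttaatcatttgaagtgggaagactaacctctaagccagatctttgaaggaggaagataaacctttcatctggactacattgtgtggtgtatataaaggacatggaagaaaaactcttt
The Fabp1 stretch held 2 half-sites, 67 and 9 bases before the start, and the other two held none. Half-sites were searched on both strands in windows of 300 bases, 250 before and 50 after each start. They occurred in 5 of 30 member windows (16.7%), those of Acadm, Acadvl, Cpt1a, Echs1 and Fabp1, and in 16.3% of all 32851 promoter windows. The direct repeat AGGTCANAGGTCA, which contains the half-site, was in 0 of 30 member windows and 0.0396% of all windows. The extended half-site TNAAGGTCA was in 0 of 30 and 1.28%. Only exact matches were counted, with N as any base, so a repeat with a changed letter in either half-site was missed. Such matches are descriptions of the letters only. Windows were listed for 27 of the 32 members. The starts of Hadha and Hadhb, the partner subunits of the trifunctional protein, lie 273 bases apart on opposite strands of chromosome 5, so their windows share 228 bases.

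The libraries differed in ways that touch every value given here. The 13 protein-coding mitochondrial genes held 26.8% to 46.9% of the TPM scale in aged libraries and 19.6% to 26.1% in adult libraries, without overlap. Transcripts of the Y-linked genes Ddx3y, Kdm5d, Eif2s3y and Uty summed to 34.7 to 50.6 TPM in replicates 3 and 4 of both groups, and to 0.485 to 2.30 TPM in replicates 1 and 2 of both groups. The labels do not name this split, which is balanced over age, and the classes are called libraries with and without Y-linked transcripts below. Of the 31 members tested, 22 had their highest value in adult replicate 1 and 23 their lowest in aged replicate 3. These libraries were also the extremes over all genes tested, with the highest and the lowest median, 10.99 and 4.90 TPM. The matching shares of all genes were not counted, so the pattern is not read as particular to the members. All 12 proximal tubule markers were detected, with a sum of 15310 to 60927 TPM in aged and 26413 to 75639 TPM in adult libraries. Most of that sum was Kap, and the others summed to 3055 to 8679 TPM in aged and 4149 to 10806 TPM in adult libraries. The part of these markers in the age values below was not tested.

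The members as a group had somewhat lower TPM in aged kidneys, and no member passed the test. Their summed level was 3555, 5009, 3244 and 4654 TPM in aged replicates 1 to 4, against 6291, 4712, 4055 and 4931 TPM in adult replicates 1 to 4. The groups overlapped, with means of 4116 ± 849 TPM in aged and 4997 ± 939 TPM in adult kidneys (SD, n = 4 each). As a share of the TPM that did not come from the mitochondrial genes, the sum was 0.708% ± 0.102 in aged and 0.708% ± 0.125 in adult kidneys (SD, n = 4 each). The abundant genes Acsm2, Acadm and Etfb weigh most in such a sum. In whole tissue, fewer cells of a type and less RNA per cell cannot be told apart.

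Gene by gene, 30 of 31 members had a negative aged-minus-adult difference on the log2(TPM + 1) scale, as had 65.0% of all genes tested. The median difference of the members was −0.34, against −0.11 over all genes. By limma with Benjamini-Hochberg adjustment over all 11796 genes, 0 of 31 members passed at 0.05, and so did 0% of all genes. An unadjusted p under 0.05 was found for 2 members, Etfb and Acads, both lower in aged kidneys, and for 2.76% of all genes in that direction. The median of the members depended on scaling and on 2 libraries. Size factors gave −0.23 (−0.02 over all genes), quantile normalization −0.09 (0.00464 over all genes), and rescaling after removal of the mitochondrial genes −0.06 (0.14 over all genes). Leaving out adult replicate 1 gave −0.13, as did leaving out aged replicate 3 (0.04 over all genes for each). With both left out it was 0.10, against 0.18 over all genes.

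**Figure D1:**
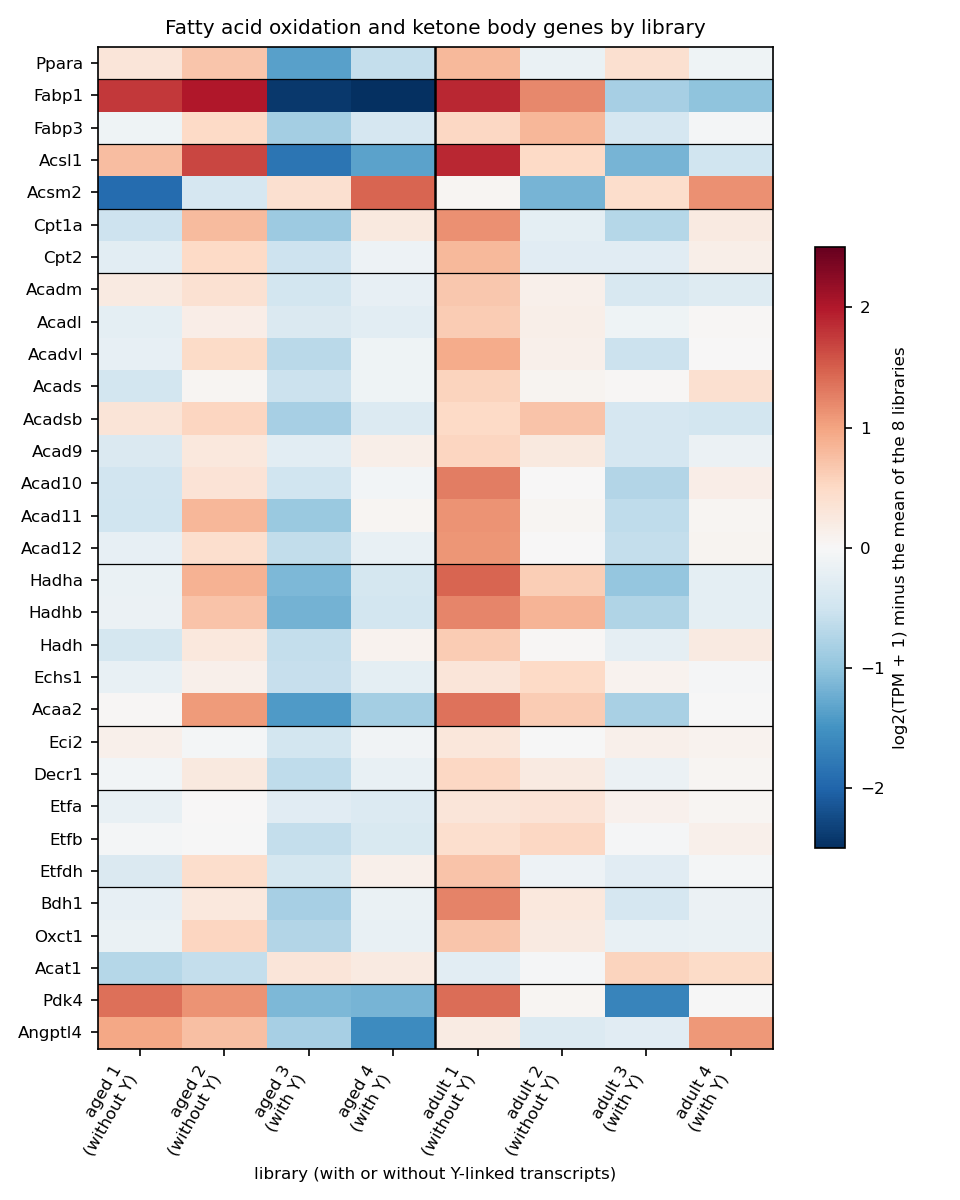
Level of each of the 31 tested members (rows, ordered by role) in each of the 8 libraries (columns, aged left of adult), as log2(TPM + 1) minus the member's mean over the 8 libraries. Adult replicate 1 is high for most members and aged replicate 3 low, and Fabp1, Acsl1 and Pdk4 are lower in the libraries with Y-linked transcripts in both groups, where Acsm2 and Acat1 are higher.

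Both subunits of electron transfer flavoprotein, which takes the electrons of the first step, had lower levels in aged kidneys, and Etfb had the smallest unadjusted p for age of all members. Etfb, its beta subunit, had 468, 483, 319 and 373 TPM in aged replicates 1 to 4, against 649, 699, 475 and 533 TPM in adult replicates 1 to 4. All aged libraries lay below all adult ones, except that aged replicate 2 was just above adult replicate 3. Etfb averaged 411 ± 78.0 TPM in aged and 589 ± 103 TPM in adult kidneys (SD, n = 4 each), a log2 difference of −0.52 (SE 0.23, limma unadjusted p of 0.0438, adjusted p = 1.00). Etfa, the alpha subunit, had 263, 304, 247 and 237 TPM in aged replicates, against 369, 384, 325 and 312 TPM in adult replicates. It is named because its groups did not overlap, a choice made after its values were seen. Etfa was the only member of which this was true in either direction, and 2.11% of all genes lay lower in aged kidneys in that way. Its log2 difference was −0.40 (SE 0.20, limma unadjusted p of 0.0710, adjusted p = 1.00).

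Both subunits differed by similar amounts in each class of libraries. The aged-minus-adult difference of Etfb was −0.54 on the log2 scale in libraries with and −0.50 in libraries without Y-linked transcripts, and that of Etfa was −0.39 and −0.41. With the class as a covariate the unadjusted p was 0.00643 for Etfb and 0.0231 for Etfa, with limma adjusted p of 0.389 and 0.496. Size factors gave a difference of −0.42 for Etfb, quantile normalization −0.18, and removal of the mitochondrial genes −0.23. For Etfa they gave −0.30, −0.096 and −0.12. The ratio of Etfa to Etfb within a library was 0.562 to 0.775 in aged and 0.549 to 0.684 in adult kidneys. Size factors and removal of the mitochondrial genes leave this ratio unchanged, while quantile normalization can alter it. Etfdh, the oxidoreductase that passes these electrons to ubiquinone, averaged 66.5 ± 19.9 TPM in aged and 73.4 ± 25.8 TPM in adult kidneys (SD, n = 4 each). Of the 31-base words of Etfb transcripts, 49.9% also occur in another gene, mostly Gm45233, which overlaps it on the same strand, so the level of Etfb is uncertain. For Etfa that share was 10.8%. Gm45233 itself had no row under its symbol, so its own level cannot be given beside that of Etfb.

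The acyl-CoA dehydrogenases open each round, each for a range of chain lengths or branched chains. Acadm, for medium chains, was the most abundant of them and nearly equal in both groups. It had 524, 586, 325 and 389 TPM in aged replicates 1 to 4, against 719, 492, 341 and 362 TPM in adult replicates 1 to 4. The values of both groups spanned much the same range, with a log2 difference of −0.04 (SE 0.29, limma adjusted p = 1.00). Acads, for short chains, had 58.2, 82.6, 55.1 and 74.7 TPM in aged replicates, against 118, 84.6, 81.4 and 106 TPM in adult replicates. Only aged replicate 2 reached into the adult range. Acads averaged 67.7 ± 13.2 TPM in aged and 97.6 ± 17.5 TPM in adult kidneys (SD, n = 4 each), a log2 difference of −0.52 (SE 0.24, limma unadjusted p of 0.04999, adjusted p = 1.00). Acadvl, for very long chains, had 87.8, 142, 63.3 and 94.8 TPM in aged replicates, against 195, 112, 69.5 and 102 TPM in adult replicates. Adult replicate 1 alone lay above all aged libraries, and the log2 difference was −0.26 (SE 0.34, adjusted p = 1.00).

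The other dehydrogenases did not pass the test either. Acadl, for long chains, averaged 127 ± 22.2 TPM in aged and 163 ± 39.4 TPM in adult kidneys (SD, n = 4 each), a log2 difference of −0.35 (SE 0.24). Acadsb, which acts on short branched chains, had 82.2, 95.6, 36.8 and 51.5 TPM in aged replicates 1 to 4, against 93.7, 108, 48.7 and 47.5 TPM in adult replicates 1 to 4. In both groups replicates 1 and 2 were high and replicates 3 and 4 low, and the log2 age difference was −0.16 (SE 0.37). Acad9, also an assembly factor of respiratory complex I, averaged 16.9 TPM in aged and 18.4 TPM in adult kidneys. Acad10, Acad11 and Acad12 averaged 13.4, 39.0 and 7.51 TPM in aged kidneys, against 19.2, 47.4 and 10.03 TPM in adult kidneys. Acad10 and Acad12 are neighbours on chromosome 5 and share 23.8% and 24.4% of their 31-base words with other genes, mostly with each other, so their separate levels are uncertain.

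**Figure D2:**
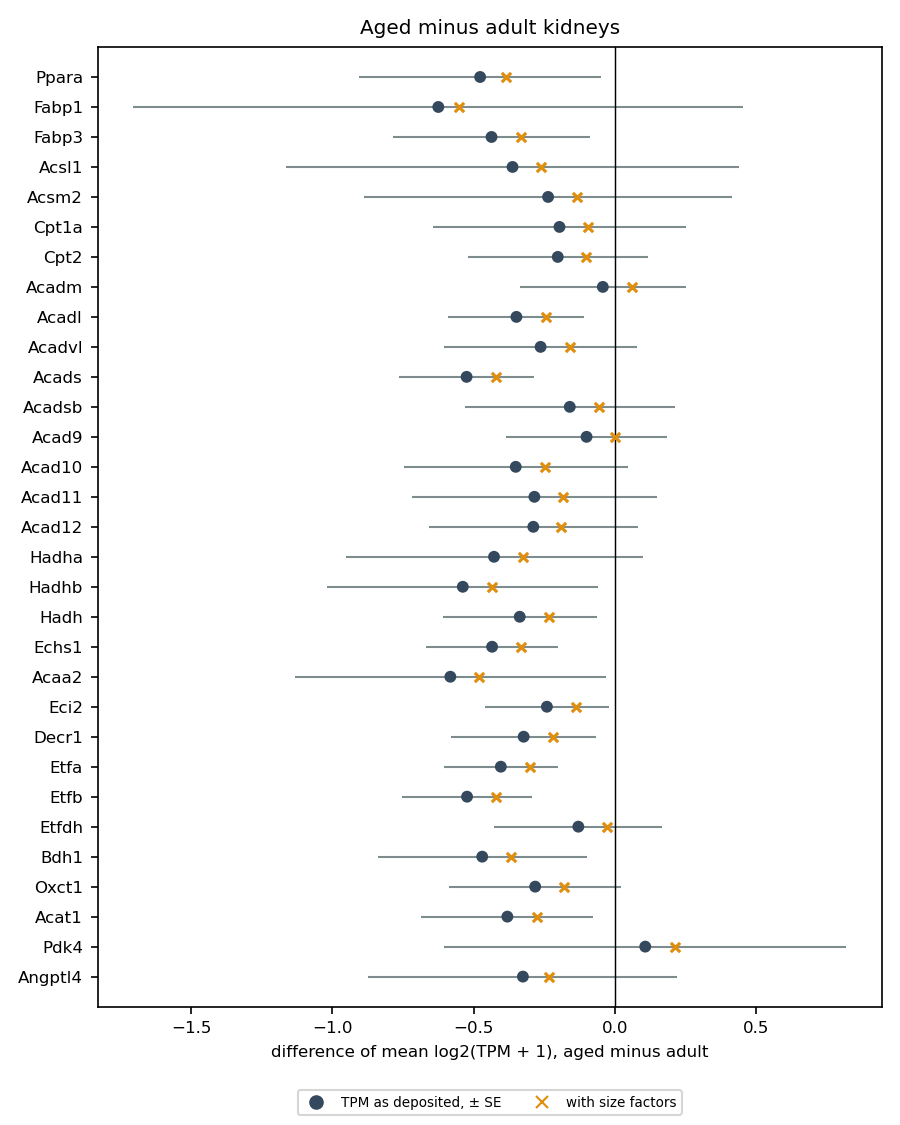
Difference of mean log2(TPM + 1), aged minus adult, for each of the 31 tested members (points, as deposited, with SE as bars; crosses, with size factors). All but Pdk4 lie left of 0 as deposited, from −0.62 for Fabp1 to −0.04 for Acadm, and most bars of 1 SE are long against the differences.

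The later steps of the round had differences of −0.34 to −0.58, none past the test. Hadhb, the thiolase subunit of the trifunctional protein for long chains, had 82.7, 151, 39.8 and 66.1 TPM in aged replicates 1 to 4, against 214, 166, 54.0 and 77.0 TPM in adult replicates 1 to 4. Hadha, its hydratase and dehydrogenase subunit, had 39.8, 82.6, 19.9 and 32.6 TPM in aged replicates, against 124, 69.0, 22.2 and 37.7 TPM in adult replicates. Both genes had the same order of libraries within each group, highest in adult replicate 1 and lowest in aged replicate 3. Their log2 age differences were −0.54 (SE 0.48) for Hadhb and −0.43 (SE 0.53) for Hadha, each with a limma adjusted p of 1.00. The ratio of Hadha to Hadhb stayed between 0.482 and 0.548 in aged and between 0.412 and 0.579 in adult libraries, while Hadhb itself ranged from 39.8 to 214 TPM. Of the 31-base words of Hadhb, 23.3% occur in other genes, most of them in the processed pseudogene Gm13910. That pseudogene was itself listed at no more than 0.986 TPM in any library.

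Acaa2, the mitochondrial thiolase of medium chains, had 134, 275, 48.3 and 71.9 TPM in aged replicates 1 to 4, against 335, 202, 74.2 and 129 TPM in adult replicates 1 to 4. The groups overlapped, with the highest library among the adult and the lowest among the aged ones, and the log2 difference was −0.58 (SE 0.55, limma adjusted p = 1.00). Echs1, the short-chain hydratase, had 164, 202, 124 and 156 TPM in aged replicates, against 230, 261, 196 and 183 TPM in adult replicates. Only aged replicate 2 exceeded the lowest adult values (log2 difference −0.43, SE 0.23, limma unadjusted p of 0.0877). Hadh, the hydroxyacyl-CoA dehydrogenase of shorter chains, had 186, 303, 167 and 270 TPM in aged replicates, against 393, 258, 217 and 296 TPM in adult replicates. These groups overlapped broadly. Eci2, an isomerase of unsaturated chains, had 99.2, 87.8, 66.0 and 85.0 TPM in aged replicates, against 111, 90.0, 98.8 and 97.3 TPM in adult replicates. Decr1, the dienoyl-CoA reductase of unsaturated chains, had 81.6, 102, 54.9 and 75.6 TPM in aged replicates, against 123, 100.4, 77.9 and 88.7 TPM in adult replicates. Aged replicate 3 was the lowest library for Eci2 and for Decr1, and both groups overlapped.

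Entry into the mitochondrion showed no difference past the spread. Cpt1a, the carnitine palmitoyltransferase that limits entry, had 30.6, 77.4, 23.0 and 52.9 TPM in aged replicates 1 to 4, against 98.7, 37.2, 26.6 and 51.6 TPM in adult replicates 1 to 4. Values varied more than 3-fold within each group, and the log2 age difference was −0.20 (SE 0.45, limma adjusted p = 1.00). Cpt2, its partner at the inner membrane, averaged 33.6 ± 11.1 TPM in aged and 39.4 ± 15.8 TPM in adult kidneys (SD, n = 4 each).

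The enzymes of ketone bodies gave the same picture. Oxct1, which activates acetoacetate for oxidation, had 300.1, 487, 201 and 297 TPM in aged replicates 1 to 4, against 547, 393, 298 and 299 TPM in adult replicates 1 to 4. Bdh1, which interconverts hydroxybutyrate and acetoacetate, had 41.4, 57.8, 26.5 and 42.5 TPM in aged replicates, against 115, 57.8, 35.5 and 43.2 TPM in adult replicates. For both genes adult replicate 1 was the highest and aged replicate 3 the lowest library. The log2 age differences were −0.28 (SE 0.31) for Oxct1 and −0.47 (SE 0.37) for Bdh1. Acat1, the acetoacetyl-CoA thiolase, had 189, 205, 383 and 361 TPM in aged replicates, against 258, 304, 456 and 432 TPM in adult replicates. Its libraries separated first by Y-linked transcripts and then, within each class, by age, with both aged libraries below both adult ones in each class. The log2 age difference of Acat1 was −0.38 (SE 0.30, limma adjusted p = 1.00, and 0.548 with the class as a covariate).

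With the class as a covariate 5 members had an unadjusted p under 0.05 for age, all lower in aged kidneys, against 7.21% of all genes in that direction. They were Etfb, Etfa, Echs1, Acads and Acat1, and the lowest limma adjusted p was 0.389. With size factors and the class together there were 3, Acads, Hadhb and Acaa2, against 5.83% of all genes, with a lowest limma adjusted p of 0.406. Acads was the member common to both counts.

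**Figure D3:**
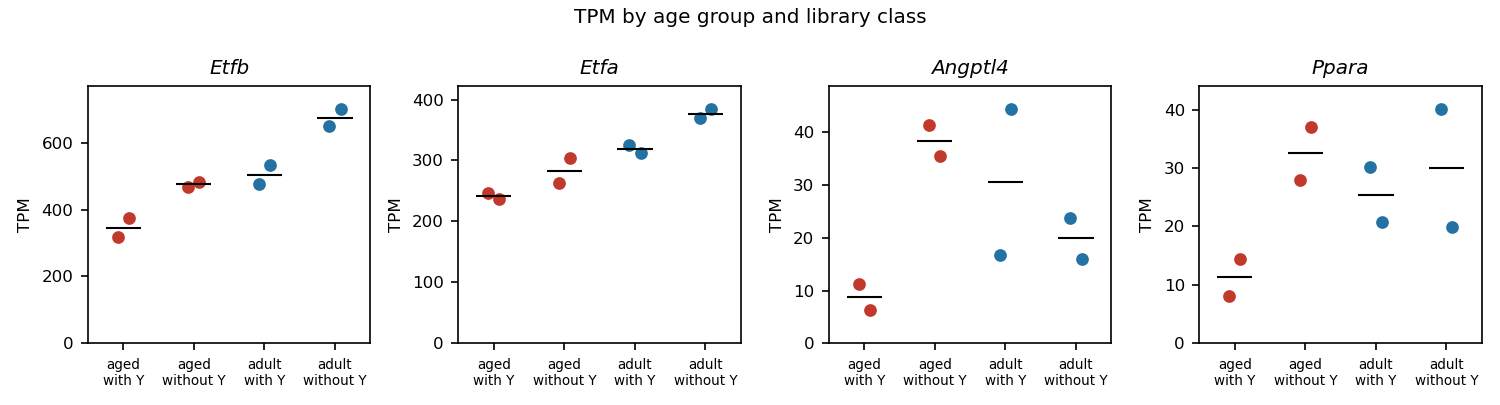
TPM of Etfb, Etfa, Angptl4 and Ppara by age group and library class, with 1 point per library and bars at the mean of each pair. Etfb and Etfa are lower in aged than adult libraries in both classes, while Angptl4 and Ppara are lowest in the 2 aged libraries with Y-linked transcripts.

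The libraries with Y-linked transcripts differed from those without in 11 members, the clearest contrast in the pathway. By limma with age as a covariate, 9 of 31 members were lower and 2 higher in libraries with Y-linked transcripts, against 11.3% and 1.13% of all genes in those directions. The difference was negative for 29 of 31 members and for 89.2% of all genes, with medians of −0.64 for the members and −0.46 over all genes. That general shift depended on scaling. With size factors the median was −0.07 for the members and 0.01 over all genes, and 4 members were lower and 2 higher, against 2.48% and 2.95% of all genes. Those 6 members, Fabp1, Acsl1, Acaa2, Hadhb, Acsm2 and Acat1, passed under all 4 scalings. The classes did not overlap for 9 members that were lower and 2 that were higher, against 21.3% and 1.35% of all genes. Every one of these counts concerns a split that the labels do not name.

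Fatty acid binding protein 1, which carries fatty acids in liver and gut and, in humans, in the proximal tubule, had the largest difference. Fabp1 had 2.30 and 1.86 TPM in aged and 8.86 and 7.69 TPM in adult libraries with Y-linked transcripts, against 58.1 and 69.2 TPM in aged and 63.3 and 39.2 TPM in adult libraries without. Every library with Y-linked transcripts was far below every one without, and the averages were 5.18 ± 3.61 TPM with and 57.4 ± 13.0 TPM without (SD, n = 4 each), an 11.1-fold lower level. The log2 difference was −3.42 (SE 0.37, limma adjusted p = 0.000666), and −2.91 with size factors (adjusted p = 0.00483). Hepatocyte markers moved in part with this split. All 7 of them summed to 106 to 155 TPM in libraries with and 98.5 to 191 TPM in those without Y-linked transcripts. Alb had 2.62 to 4.15 TPM with and 8.28 to 31.7 TPM without, and did not overlap. Nor did Fgb, at 0.0237 to 0.487 TPM with and 0.524 to 2.89 TPM without. Apoc3 had 5.17 to 18.8 TPM with and 16.2 to 42.2 TPM without, and overlapped, as did Apoa1 (0 to 0.653 and 0.531 to 2.86 TPM). Ttr had 82.4 to 109.8 TPM with and 43.8 to 119.997 TPM without, and Serpina1a 11.7 to 29.5 TPM with and 7.40 to 21.3 TPM without, so both overlapped. Cps1 was at 0 in 7 of 8 libraries and 0.0736 TPM in the other. Their part in the Fabp1 result was not tested.

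Acsl1, the long-chain acyl-CoA synthetase, had 13.4 and 19.3 TPM in aged and 21.9 and 35.4 TPM in adult libraries with Y-linked transcripts, against 86.3 and 163 TPM in aged and 189 and 71.1 TPM in adult libraries without. The classes were well apart, with averages of 22.5 ± 9.32 TPM with and 127 ± 57.6 TPM without (SD, n = 4 each). The log2 difference was −2.41 (SE 0.36, limma adjusted p = 0.00433), and −1.86 with size factors (adjusted p = 0.00734). Acsm2, a medium-chain acyl-CoA synthetase, went the other way. It had 722 and 1507 TPM in aged and 745 and 1199.5 TPM in adult libraries with Y-linked transcripts, against 143 and 410 TPM in aged and 567 and 243 TPM in adult libraries without. All libraries with were above all without, by 3.06-fold on average (1043 ± 379 TPM with and 341 ± 187 TPM without, SD, n = 4 each). The log2 difference was 1.72 (SE 0.42, limma adjusted p = 0.0313), and 2.30 with size factors (adjusted p = 0.00479). The 2 synthetases thus differed in opposite directions between the same libraries.

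Among the enzymes of the round, Acaa2 averaged 80.9 ± 34.4 TPM with and 237 ± 87.5 TPM without Y-linked transcripts (SD, n = 4 each). Its log2 difference was −1.54 (SE 0.30, limma adjusted p = 0.0152), and −0.98 with size factors (adjusted p = 0.0329). Hadhb averaged 59.2 ± 16.0 TPM with and 153 ± 54.4 TPM without, a log2 difference of −1.32 (SE 0.26, adjusted p = 0.0167), and −0.76 with size factors (adjusted p = 0.0331). Its partner Hadha averaged 28.1 ± 8.45 TPM with and 78.9 ± 35.0 TPM without. The difference of Hadha was −1.39 (SE 0.32, adjusted p = 0.0268) as deposited, and −0.83 with size factors, where it did not pass (adjusted p = 0.0542). Acadsb averaged 46.1 ± 6.44 TPM with and 94.8 ± 10.5 TPM without (log2 difference −1.03, SE 0.18, adjusted p = 0.00874), and missed the threshold with size factors (−0.47, adjusted p = 0.180). Acadm averaged 354 ± 27.5 TPM with and 580.2 ± 100.3 TPM without (−0.70, SE 0.18, adjusted p = 0.0355). With size factors the difference of Acadm was −0.13 (adjusted p = 0.717).

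Of the ketone body enzymes, Acat1 averaged 408 ± 43.9 TPM with and 239 ± 52.4 TPM without Y-linked transcripts (SD, n = 4 each). Its log2 difference was 0.79 (SE 0.16, limma adjusted p = 0.0166), and 1.36 with size factors (adjusted p = 0.00959). Oxct1 and Bdh1 had differences of −0.64 and −0.78 and did not pass (adjusted p = 0.0737 and 0.0765). Pdk4, the kinase that shuts off pyruvate dehydrogenase in fasting, had 3.48 and 3.39 TPM in aged and 2.10 and 8.76 TPM in adult libraries with Y-linked transcripts, against 24.5 and 20.3 TPM in aged and 24.9 and 9.12 TPM in adult libraries without. The classes only just did not overlap, at 8.76 and 9.12 TPM. The log2 difference of Pdk4 was −1.97 (SE 0.41, adjusted p = 0.0183), and −1.48 with size factors, where it missed the threshold (adjusted p = 0.0598). Fabp3, the heart type binding protein, had 50.7 and 68.3 TPM in aged and 68.6 and 88.3 TPM in adult libraries with Y-linked transcripts, against 85.5 and 129 TPM in aged and 131 and 164 TPM in adult libraries without. One adult library with Y-linked transcripts lay above the lowest one without. The difference of Fabp3 was −0.87 (SE 0.21, adjusted p = 0.0300), and −0.30 with size factors (adjusted p = 0.392). The 7 striated muscle markers summed to at most 0.803 TPM with and at most 2.83 TPM without Y-linked transcripts. The 4 brown fat markers summed to 59.2 to 155 TPM with and 137 to 255 TPM without. Most of that sum was Cox7a1, which had 58.5 to 153 TPM with and 111 to 203 TPM without, and overlapped. Cox8b had 0 to 1.499 TPM with and 23.8 to 46.2 TPM without, and did not overlap. Cidea had at most 1.80 TPM and Ucp1 at most 5.64 TPM in any library, and both overlapped. The 7 adipocyte markers, most of whose sum was Fabp4, reached 108 to 148 TPM with and 99.2 to 256 TPM without, and Plin1 was at 0 in 7 of 8 libraries. The part of these cells in the Fabp3 result was not tested. Of the 31-base words of Fabp3, 35.2% occur in the pseudogene Fabp3-ps1, which was itself listed at no more than 0.855 TPM in any library.

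**Figure D4:**
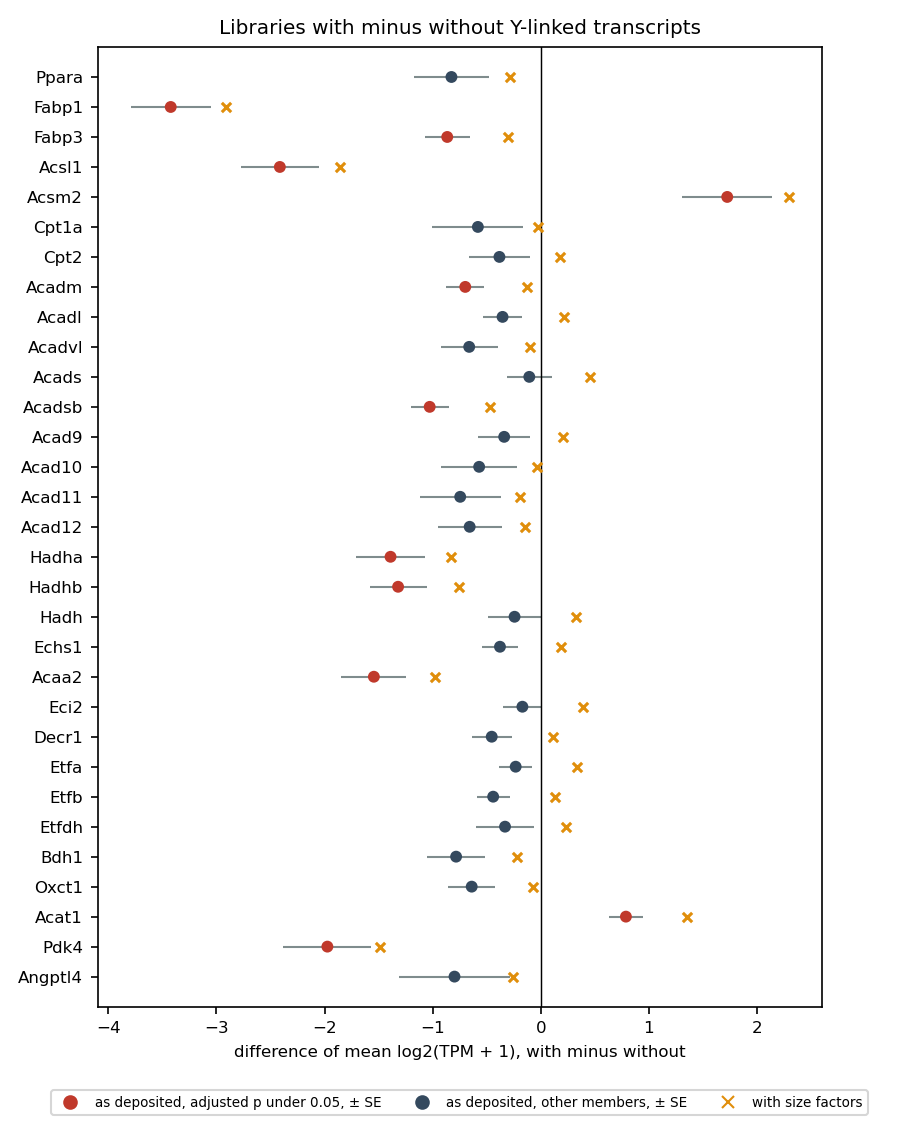
Difference of mean log2(TPM + 1), libraries with minus without Y-linked transcripts and adjusted for age, for each of the 31 tested members (points, as deposited, with SE as bars; crosses, with size factors). Red points have a limma adjusted p under 0.05: 9 members lie to the left, with Fabp1 at −3.42 the farthest, and Acsm2 and Acat1 lie to the right.

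Single libraries decided several of these calls. The count of 11 members was 4 when aged replicate 2 was left out, 3 when aged replicate 3 was, 7 when adult replicate 1 was, 3 when adult replicate 3 was, and 8 to 11 for each other library. Over all genes tested, 1331 were lower with Y-linked transcripts when every library was kept. That number was 315 and 320 when aged replicates 2 and 3 were left out in turn, 430.0 and 346 for adult replicates 1 and 3, and 713 to 1840 for each of the other 4 libraries. Fabp1, Acsl1 and Acadsb passed in all 8 of these fits and Acaa2 in 6, failing without aged replicate 3 or adult replicate 3. Hadhb and Acat1 each passed in 5, failing without aged replicate 2, aged replicate 3 or adult replicate 3. Hadha and Pdk4 each passed in 4, and failed also without adult replicate 1. Acadm passed in 3, failing without either of aged replicates 2 and 3 or any of adult replicates 1, 3 and 4. Acsm2 passed only without aged replicate 1 or adult replicate 1, and Fabp3 only without aged replicate 1 or aged replicate 4. No direction of these 11 members changed in any of them. With both adult replicate 1 and aged replicate 3 left out, 3 members passed.

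Summed markers of several nephron segments and of macrophages moved with the same split, in which 89.2% of all genes tested had a negative difference. The 12 proximal tubule markers summed to 57488 to 75639 TPM with and 15310 to 32009 TPM without Y-linked transcripts. Without Kap, which alone had 51715 to 71490 TPM with and 8775 to 21203 TPM without, the other 11 summed to 3055 to 6283 TPM with and 3644 to 10806 TPM without, and overlapped. Slc7a13, a transporter of the last proximal segment, had 171 to 292 TPM with and 0.362 to 1.34 TPM without. The 5 thick ascending limb markers summed to 242 to 501 TPM with and 923 to 1999 TPM without, and the 4 distal convoluted tubule markers to 67.8 to 158 TPM with and 163 to 462 TPM without. In the collecting duct, the 4 principal cell markers summed to 49.1 to 109 TPM with and 122 to 254 TPM without, and the 4 intercalated cell markers to 35.1 to 62.2 TPM with and 76.8 to 96.3 TPM without. The 5 macrophage markers summed to 20.7 to 62.7 TPM with and 64.7 to 103 TPM without. Gene by gene, every thick ascending limb marker was lower with Y-linked transcripts without overlap. In the distal convoluted tubule, collecting duct and macrophage lists only Pvalb, Aqp2, Scnn1g, Atp6v1g3, C1qa and C1qb were, and the others overlapped. Of all genes tested, 21.3% were lower without overlap. The 4 podocyte markers summed to 41.1 to 103 TPM with and 66.6 to 151 TPM without, and overlapped. So did the 5 endothelial markers, at 64.4 to 146 TPM with and 113 to 140 TPM without. The part of these cells in the members' differences was not tested.

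**Figure D5:**
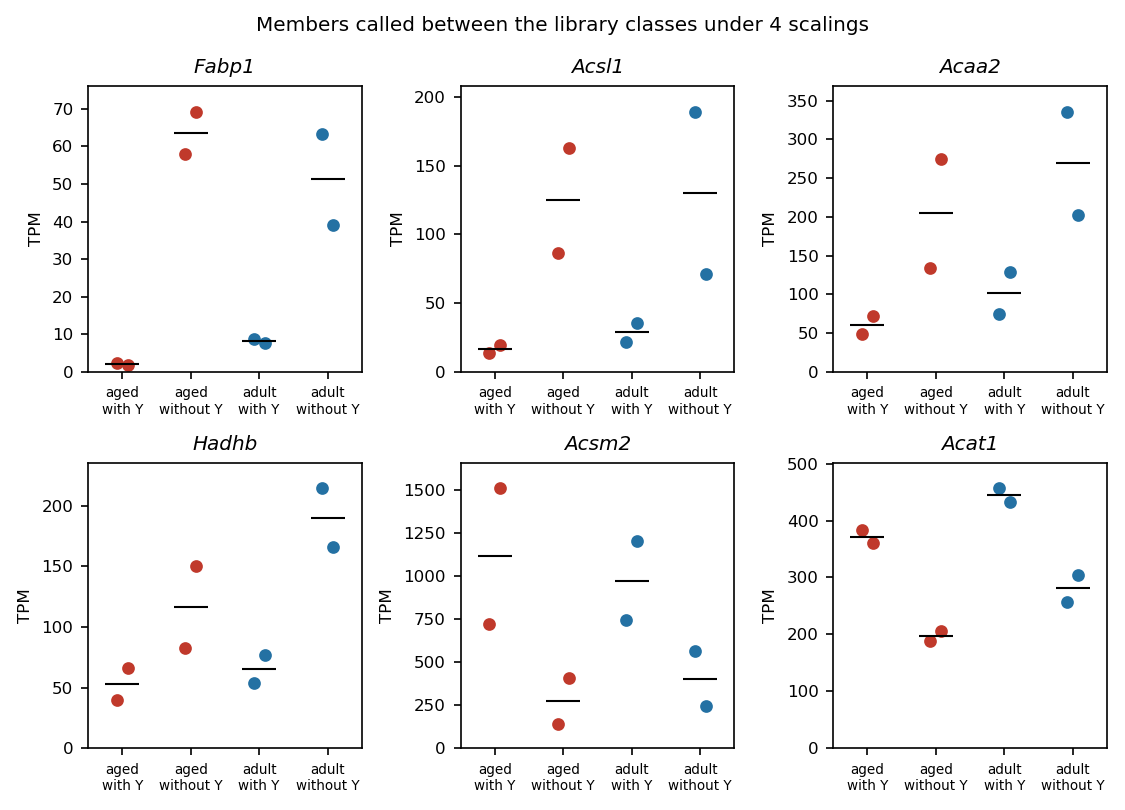
TPM of the 6 members that passed between the library classes under all 4 scalings, by age group and class, with 1 point per library and bars at the mean of each pair. Fabp1, Acsl1, Acaa2 and Hadhb are lower and Acsm2 and Acat1 higher in libraries with Y-linked transcripts, in aged and in adult kidneys alike.

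Whether the age difference itself varied between the classes was tested by the product of age and class. Of the 31 members 0 passed, against 0.0339% of all genes, while 2 had an unadjusted p under 0.05, both with a negative product, as had 0.788% of all genes. Angptl4, a secreted inhibitor of lipoprotein lipase and a target of PPARA, had 11.2 and 6.28 TPM in aged and 16.7 and 44.3 TPM in adult libraries with Y-linked transcripts, and 41.3 and 35.4 TPM in aged and 23.7 and 16.0 TPM in adult libraries without. Aged libraries were below adult ones in the class with and above them in the class without. The log2 age difference of Angptl4 was −1.59 with and 0.94 without, and these differed by −2.52 (SE 0.66, limma unadjusted p of 0.00410, adjusted p = 1.00). Fabp1, with the values given above, had age differences of −1.59 with and 0.34 without, which differed by −1.93 (SE 0.45, limma unadjusted p of 0.00211, adjusted p = 1.00). Ppara itself had 8.18 and 14.4 TPM in aged and 30.1 and 20.8 TPM in adult libraries with Y-linked transcripts, and 28.0 and 37.0 TPM in aged and 40.0 and 19.99 TPM in adult libraries without. Its 2 lowest libraries were the aged ones with Y-linked transcripts. The age difference of Ppara was −1.13 with and 0.18 without, which differed by −1.31 (SE 0.59, limma unadjusted p of 0.0536, adjusted p = 1.00). Over all 8 libraries the age difference was −0.48 (SE 0.43) for Ppara, −0.62 (SE 1.08) for Fabp1 and −0.33 (SE 0.55) for Angptl4. For Pdk4 it was 0.11 (SE 0.71), the only positive one.

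Other genes of fatty acid and ketone body metabolism were listed by role, 76 in all, of which 73 had a row and 65 could be tested. For age 0 of 65 passed, 48 had a negative difference, as had 65.0% of all genes, and the median was −0.20, against −0.11 over all genes. The 3 with an unadjusted p under 0.05 were Acaa1a, Nudt7 and Acsf3, each lower in aged kidneys, as were 2.76% of all genes at that p. Acaa1a, a peroxisomal thiolase that shares 18.1% of its 31-base words with other genes, had a log2 difference of −0.80 (SE 0.35, limma adjusted p = 1.00). Nudt7, which cleaves coenzyme A in peroxisomes, had −0.67 (SE 0.29). Acsf3, which activates malonate in mitochondria, had −1.22 (SE 0.54) and was listed at 0 in aged replicate 1. Esrra, a nuclear receptor that drives genes of oxidative metabolism, came next by p. It had 25.5, 35.6, 17.5 and 29.95 TPM in aged replicates 1 to 4, against 49.2, 42.4, 31.96 and 37.3 TPM in adult replicates 1 to 4. Only aged replicate 2 reached into the adult range, and the log2 difference was −0.58 (SE 0.27, limma adjusted p = 1.00).

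Between the classes 4 of these 65 genes were higher and 16 lower in libraries with Y-linked transcripts by limma adjusted p, against 1.13% and 11.3% of all genes. With size factors 7 were higher and 7 lower, against 2.95% and 2.48% of all genes. Acsm3, like Acsm2 a gene of chromosome 7 and a medium-chain acyl-CoA synthetase, had 240.3 and 256 TPM in aged and 211 and 191 TPM in adult libraries with, against 0.623 and 1.76 TPM in aged and 1.13 and 0.587 TPM in adult libraries without (log2 difference 6.83, SE 0.22, adjusted p = 2.38e-07). No library came near those of the other class. Acsm1, which lies between Acsm2 and Acsm3 and is named after its values were seen, had lower levels with than without Y-linked transcripts (log2 difference −1.27, SE 0.33, adjusted p = 0.0385), and missed the threshold with size factors (−0.71, adjusted p = 0.114). Cyp4a14, a fatty acid omega hydroxylase induced through PPARA, had 1.64 and 1.16 TPM in aged and 8.12 and 5.48 TPM in adult libraries with, against 122 and 240.3 TPM in aged and 291 and 119.9 TPM in adult libraries without (−5.39, SE 0.40, adjusted p = 7.41e-05). Cyp4a12a, of the same family, lay the other way (4.42, SE 0.34, adjusted p = 9.55e-05), although 62.2% of its words occur in other genes. Acot3, a peroxisomal acyl-CoA thioesterase, averaged 3.55 ± 1.56 TPM with and 18.6 ± 6.42 TPM without (SD, n = 4 each, −2.11, SE 0.26, adjusted p = 0.00152). Slc25a20, the carnitine carrier of the inner membrane, averaged 24.1 ± 5.16 TPM with and 44.0 ± 4.97 TPM without (SD, n = 4 each). Its difference was −0.86 (SE 0.20, adjusted p = 0.0260), and −0.30 with size factors, where it missed the threshold (adjusted p = 0.377).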

How the data were processed

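RNA of 8 kidneys was extracted with a Qiagen RNeasy kit and made into stranded TruSeq libraries after polyA pull-down, per the labels' protocols. The authors deposited TPM values in 1 table of 30153 mouse genes. Kallisto, DESeq2 and the build GRCm38 are named in the submitters' processing notes; the step that made the TPM and its annotation were not given in the sources used here. Columns summed to between 924798 and 950974 TPM, and read depth is unknown. The series' design text states separate animals.

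Symbols were found for 29732 identifiers (98.6%). Values were transformed to log2(TPM + 1), with a pseudocount of 1, which understates the change of low genes. Genes with a mean of at least 1 TPM were fitted in R 4.3.3 by limma 3.58.1, whose variance prior followed the mean level, and p-values were adjusted by Benjamini-Hochberg over all 11796 genes, with a threshold of 0.05. Fits were for age, for the class of the library (Y-linked sum above 10 TPM) with age as a covariate, and for their product. TPM are not counts, so count models were not applied. The members, the gene lists, the class and the rule for named genes were chosen with earlier results of these data known. The rule gives values in every library for members with an unadjusted p under 0.05 in any of the fits. It does the same for the 4 largest age differences of each sign, the most abundant member of each role, Ppara, Cpt1a and Acadm. It also names 9 other pathway genes by role and smallest p. Of these, only Esrra, Acsm3 and Cyp4a14 have values in every library above. Of the other genes, 3 of 76 had no match by symbol; some other genes are not reported here.

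The following were tried in place of these choices: a pseudocount of 0.1 or 5; all genes, or those averaging 5 TPM or more; scaling by size factors, by quantiles or after dropping mitochondrial genes; limma with robust or array-weighted fits or with no trend; a replicate block; and leaving out each library. Shared 31-base words and gene positions came from GENCODE release M21, and promoters from RefSeq. The fit was tested on simulated data over 11796 genes, 20 runs with 200 changed genes each, with 5.45 false calls per run on average.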

Additional observations from a re-analysis of the deposited data

How the results depend on the processing

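The count of members past the threshold for age was 0 under each of the 24 alternatives, the replicate number as a block among them. Their median age difference was −0.34 with the block and −0.49 to −0.13 with each library left out in turn. Deviations of aged and adult libraries of the same number correlated by 0.0380 to 0.486, and those of different numbers by −0.527 to 0.572. Of the aged libraries, 2 of 4 correlated best with the adult library of their own number. Libraries of the same number also share their class, so these correlations cannot decide whether the numbers pair the animals. The count for the product of age and class was also 0 under each alternative tried. For the library classes, the count of 11 members was 5 with no filter, 6 with size factors, 21 with array weights, 3 within the aged and 1 within the adult libraries, 3 with both adult replicate 1 and aged replicate 3 left out, and 3 to 11 with each library left out in turn. The median class difference of −0.64 was −0.069 with size factors and −0.16 with quantile normalization. The cause of these shifts was not tested. Leaving out both libraries, and joining size factors with the class, were chosen after the data were seen, as was every alternative for the class difference of the other pathway genes.

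Among single genes, no age difference had passed the test, so every change of sign for age was of a difference that had not passed. Between the library classes, too, only differences that had not passed turned round. For the age difference (log2), with size factors the sign changed for Acad9 (0.00080) and Acadm (0.062). With quantile normalization the sign changed for Acad9 (0.036), Acadm (0.28), Acadsb (0.085), Acsm2 (0.17), Cpt1a (0.018), Eci2 (0.024), Etfdh (0.11), Oxct1 (0.035) and Slc25a20 (0.015). With array weights the sign changed for Acad9 (0.044), Acadm (0.17), Acadsb (0.16), Acsm3 (−1.34), Cyp4a12a (−0.72) and Cyp4a14 (0.23). With mitochondrial genes removed the sign changed for Acad9 (0.18), Acadm (0.25), Acadsb (0.13), Acadvl (0.024), Acsm2 (0.052), Cpt1a (0.086), Cpt2 (0.079), Eci2 (0.046), Etfdh (0.16), Oxct1 (0.0064) and Slc25a20 (0.081). With both adult replicate 1 and aged replicate 3 left out the sign changed for Acaa2 (0.15), Acad10 (0.12), Acad11 (0.31), Acad12 (0.18), Acad9 (0.13), Acadm (0.32), Acadsb (0.23), Acadvl (0.19), Acsl1 (0.76), Bdh1 (0.064), Cpt1a (0.42), Cpt2 (0.17), Etfdh (0.22), Fabp1 (0.60), Hadha (0.29), Hadhb (0.082), Oxct1 (0.10), Ppara (0.085), Acot3 (0.26), Acsm3 (−1.94), Cyp4a12a (−0.77), Cyp4a14 (1.06) and Slc25a20 (0.18). Within libraries without Y-linked transcripts the sign changed for Acsl1 (0.032), Angptl4 (0.94), Fabp1 (0.34), Ppara (0.18) and Slc25a20 (0.062). Within libraries with Y-linked transcripts the sign changed for Acad10 (0.0061), Acad9 (0.23), Acadm (0.018), Acsm2 (0.14), Etfdh (0.0047) and Pdk4 (−0.31). With size factors and the class as a covariate the sign changed for Acad9 (0.00080) and Acadm (0.062). With each library left out in turn the sign of the age difference was not constant for Acad10 (−0.65 to 0.015), Acad11 (−0.61 to 0.043), Acad12 (−0.53 to 0.029), Acad9 (−0.26 to 0.060), Acadm (−0.18 to 0.18), Acadvl (−0.49 to 0.0040), Acsl1 (−0.98 to 0.21), Cpt1a (−0.49 to 0.15), Cpt2 (−0.40 to 0.036), Etfdh (−0.30 to 0.088), Pdk4 (−0.43 to 0.59), Acsm3 (−0.95 to 1.53), Acsm2 (−0.76 to 0.37), Angptl4 (−0.70 to 0.14), Cyp4a12a (−0.46 to 1.39), Acadsb (−0.36 to 0.088), Fabp1 (−1.40 to 0.14), Cyp4a14 (−2.09 to 0.17) and Slc25a20 (−0.42 to 0.025).

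For the difference between library classes (log2), with size factors the sign changed for Acad9 (0.20), Acadl (0.21), Acads (0.46), Cpt2 (0.17), Decr1 (0.11), Echs1 (0.19), Eci2 (0.39), Etfa (0.34), Etfb (0.13), Etfdh (0.23), Hadh (0.33), Esrra (0.17) and Nudt7 (0.0011). With quantile normalization the sign changed for Acad9 (0.13), Acads (0.24), Cpt2 (0.036), Eci2 (0.18), Etfa (0.057), Etfdh (0.040), Hadh (0.059) and Esrra (0.044). With mitochondrial genes removed the sign changed for Acads (0.073) and Eci2 (0.0090). With both adult replicate 1 and aged replicate 3 left out the sign changed for Acads (0.12), Cpt1a (0.055), Etfdh (0.022) and Hadh (0.081). Within the adult libraries the sign changed for Angptl4 (0.46). The data are TPM, which keep no depth, so no counting error could be given, and the limit on these comparisons is the spread among 4 animals a group. In simulated data with 4 libraries a group, 15.2% of 2-fold and 74.5% of 4-fold changes in age were found. The simulated noise was independent in each gene, without library classes or shifts shared across genes. Changes were placed only in genes above a minimum level. These shares may therefore differ in the real libraries, and a count of 0 does not show that differences of the size seen here are absent. The class was read from the libraries themselves, and 10 of the 32 members share more than 5% of their 31-base words with other genes.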
